A study of Mus musculus with 40 samples.

Results

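The SLC25 genes encode the mitochondrial carriers, the largest family of transporters of the inner mitochondrial membrane. The members share a fold built from a repeated unit, and most move a nucleotide, cofactor, amino acid, keto acid, acylcarnitine, or ion across a membrane that is closed to charged metabolites, while a few sit in the outer mitochondrial membrane. In liver they supply ADP and phosphate to ATP synthase, bring fatty acyl groups to beta-oxidation, connect the urea cycle and gluconeogenesis to the cytosol, and bring in cofactors made elsewhere in the cell. NAD enters mitochondria through the product of Slc25a51, which links the family to NAMPT, the enzyme that makes NAD precursor from nicotinamide in the cytosol and nucleus.

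The carriers described here were the genes with a symbol of Slc25a followed by a number and at least 10 counts in at least 3 of 38 libraries. They were 45 of 47 such symbols in a table of 55487 genes. Family members with other symbols, such as the uncoupling protein Ucp2, were outside this rule. The excluded pair, Slc25a41 and Slc25a54, reached at most 2 and 1 counts in any library. All 45 carriers passed the filter on low counts of the tests and were tested.

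The libraries were total RNA depleted of rRNA from whole liver of female C57BL/6JBomTac mice, 9 weeks of age at the start of feeding in the study. HNKO mice carried Nampt fl/fl and Alb-Cre +/-, in which the albumin promoter drives Cre recombinase in hepatocytes and the other cells of the liver keep Nampt, and WT mice were floxed littermates. Both genotypes were fed a purified control diet (PD), and livers were taken after 3 days, 6 days, 12 days, and 21 days, times that the labels list as ages. There were 5 WT and 5 HNKO libraries at day 3, 4 and 5 at day 6, 5 and 6 at day 12, and 5 and 3 at day 21. HNKO libraries 17 and 18 of day 21, labelled as failing quality control, were left out. The labels do not name the mouse behind each library, so p-values measure the spread between libraries.

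The 38 libraries held 16151037 to 64181492 counts. Nampt was lower in HNKO, with log2 fold changes of -0.93, -0.90, -0.82, and -0.69 at days 3, 6, 12, and 21 (adjusted p = 0.0193, 0.0128, 0.0208, and 0.161). At day 21, where the test was not passed, all 3 HNKO libraries were below all WT libraries. Levels are given as counts per 1000000 (CPM) of the library size after trimmed mean of M values (TMM) scaling. Fold changes are HNKO against WT from the quasi-likelihood test of edgeR, and a carrier is said to have changed where the p-value adjusted over all 20297 tested genes was below 0.05.

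Slc25a24 rose at every time point and was the one carrier to do so. It encodes an ATP-Mg/phosphate carrier that is opened by cytosolic calcium and sets the adenine nucleotide content of the matrix. The carriers that fell at 1 or more days were led by Slc25a20, the carnitine-acylcarnitine carrier of fatty acid oxidation, Slc25a46, a protein of the outer membrane that acts in fission and lipid exchange, Slc25a21, which moves 2-oxoadipate of lysine and tryptophan breakdown, Slc25a13, the aspartate/glutamate carrier of liver, and Slc25a34, for which no substrate was assigned here. The level of Slc25a51 did not pass the test at any day.

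The promoters of a carrier that rose and of 3 that fell are printed to show how the sequence before the start site differed between them. They are the 250 bases before the RefSeq transcription start on GRCm38.p6, read 5′ to 3′ on the strand of the gene. For Slc25a20 they are 202 bases, because the other 48 lie past the start of Slc25a20 itself in the gene model used for exons. Capitals mark the GC box (GGGCGG), the CCAAT box (CCAAT), or the E-box (CACGTG), found on either strand.
Slc25a24: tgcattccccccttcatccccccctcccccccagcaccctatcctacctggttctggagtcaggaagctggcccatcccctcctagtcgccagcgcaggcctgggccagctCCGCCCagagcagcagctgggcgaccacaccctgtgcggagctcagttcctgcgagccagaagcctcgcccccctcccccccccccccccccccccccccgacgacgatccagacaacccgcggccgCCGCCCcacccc
Slc25a20: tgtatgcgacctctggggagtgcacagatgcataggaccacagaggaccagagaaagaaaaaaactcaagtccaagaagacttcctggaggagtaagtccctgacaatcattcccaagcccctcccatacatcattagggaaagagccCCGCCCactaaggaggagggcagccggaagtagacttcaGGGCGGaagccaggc
Slc25a13: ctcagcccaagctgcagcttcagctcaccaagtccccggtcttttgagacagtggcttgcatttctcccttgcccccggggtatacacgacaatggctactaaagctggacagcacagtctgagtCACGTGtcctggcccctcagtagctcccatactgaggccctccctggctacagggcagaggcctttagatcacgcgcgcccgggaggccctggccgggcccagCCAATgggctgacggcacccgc
Slc25a21: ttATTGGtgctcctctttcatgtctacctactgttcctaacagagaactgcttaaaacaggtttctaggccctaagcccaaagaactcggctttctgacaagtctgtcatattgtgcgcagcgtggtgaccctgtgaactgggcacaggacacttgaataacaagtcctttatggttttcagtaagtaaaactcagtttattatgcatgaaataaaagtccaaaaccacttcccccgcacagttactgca
The Slc25a24 window lies at chr3:109122899-109123148 on the plus strand, has a GC content of 72.8%, and holds 2 GC boxes. The Slc25a20 window lies at chr9:108661886-108662087 on the plus strand, has a GC content of 53.96%, and also holds 2 GC boxes. That of Slc25a13, at chr6:6217174-6217423 on the minus strand, has a GC content of 62.8% and holds an E-box and a CCAAT box. That of the upstream of 2 annotated Slc25a21 starts, at chr12:57197473-57197722 on the minus strand, has a CCAAT box and a GC content of 43.2%. Promoters were found for 35 of the 45 carriers, with 45 start sites in all, counted over the 250 bases before and 50 after each start. The GC box occurred in 84.4% of these promoters and in 35.7% of 32851 mouse promoters, the E-box in 17.8% and 7.15%, and the CCAAT box in 48.9% and 37.4%. The TATA box (TATAAA) was in 4.44% of carrier promoters and 13.6% of all. No carrier promoter held the nuclear receptor repeat DR1, searched as AGGTCA, any base, and AGGTCA again, which was in 0.0396% of all promoters. The GC box was thus in the windows of both Slc25a24, which rose, and Slc25a20, which fell.

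In WT liver the carriers covered a wide range of level per length (RPKM, CPM per kilobase of exons). Slc25a47, a carrier found mainly in liver, was the highest at 239 ± 41.8 RPKM (SD, n = 19). Slc25a5, the main ADP/ATP carrier of liver, followed at 170.5 ± 25.4 RPKM. Slc25a39, a glutathione carrier, had 86.9 ± 9.56 RPKM, Slc25a1, the citrate carrier, 68.97 ± 10.98 RPKM, and Slc25a15, the ornithine carrier of the urea cycle, 66.8 ± 13.6 RPKM. The levels of Slc25a1 and Slc25a15 differed by less than their SD. These 5 genes made up 57.7% of the summed RPKM of the family in WT. Slc25a51 was at rank 17 with 12.6 ± 2.12 RPKM, and Slc25a24 at rank 36 with 0.954 ± 0.159 RPKM in WT and 2.04 ± 0.679 RPKM in HNKO. Slc25a31, an ADP/ATP carrier known from testis, was the lowest at 0.0769 ± 0.103 RPKM, with at most 24 counts in a library. Reads of Slc25a5 can be shared with processed copies elsewhere in the genome, since 33.03% of its 51-base stretches occur in another annotated gene, and the share was 24.9% for Slc25a35, 12.6% for Slc25a33, and less than 7% for each of the other carriers.

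**Figure D1:**
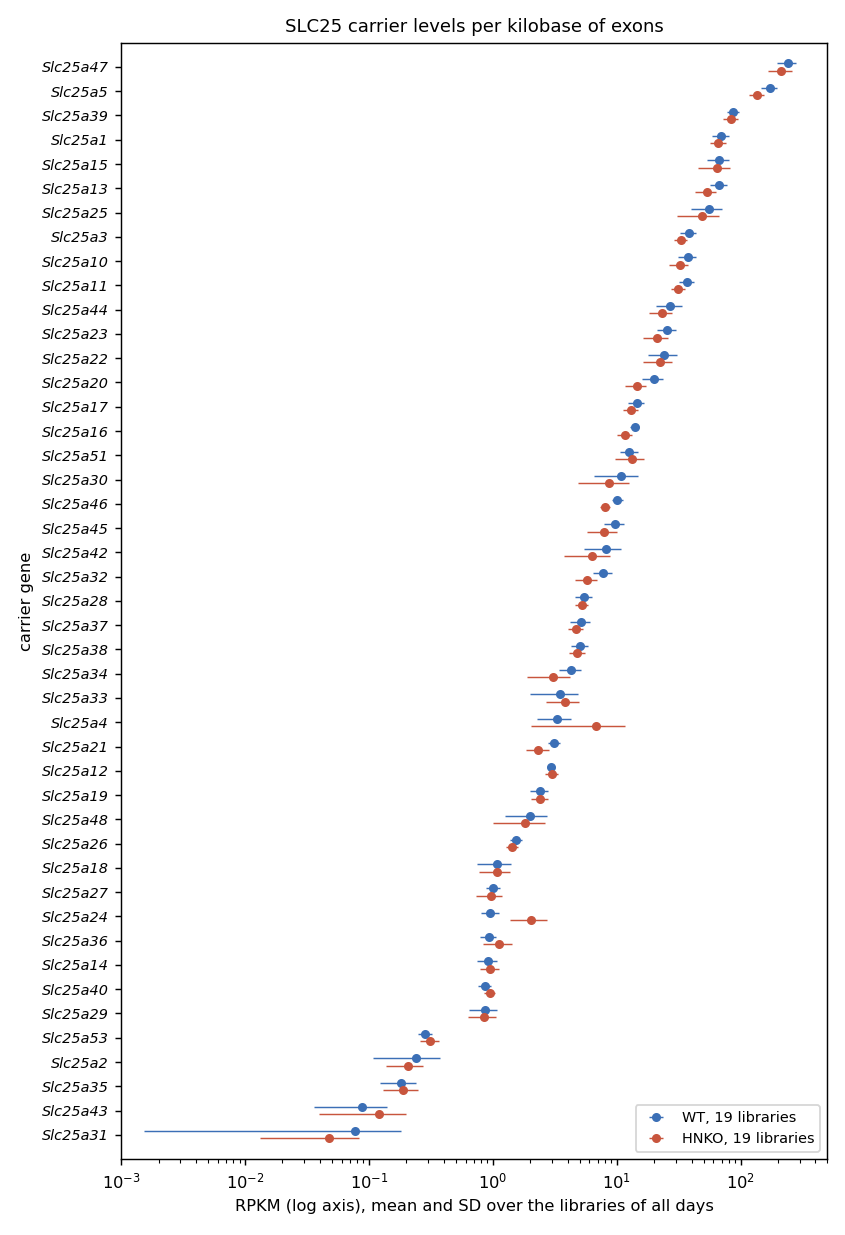
Level of each of the 45 carriers in RPKM on a log axis, as mean and SD over the 19 WT and 19 HNKO libraries of all days. Slc25a47 and Slc25a5 lie at the top, and the HNKO mean of Slc25a24 (2.04 RPKM) stands to the right of its WT mean (0.954 RPKM). The lower whisker of WT Slc25a31, whose SD exceeds its mean, is drawn short.

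At day 3, 5 of the 45 carriers changed, which is 11.1% beside 4.66% of all tested genes, and 1 of them rose (2.22% beside 2.95%) and 4 fell (8.89% beside 1.71%). At day 6, 6 carriers changed (13.3% beside 12.8%), of which 1 rose (2.22% beside 8.42%) and 5 fell (11.1% beside 4.37%). At day 12, 3 carriers changed (6.67% beside 7.82%), of which 2 rose (4.44% beside 4.56%) and 1 fell (2.22% beside 3.27%). At day 21, 1 carrier rose and 0 fell (2.22% beside 3.12% for either direction, 2.21% for higher, and 0.916% for lower). The shares that fell at days 3 and 6 were above those of all genes, and from day 12 on the shares were near them or below in this model. A further setting left out both TMM and the mitochondrial RNA from the library size, and is called the scaling without TMM below. Under it 1 carrier fell at day 3 and 1 at day 6. The carriers called either way were 4.44% beside 8.98% of all genes and 6.67% beside 14.2%. The median of all genes moved to 0.18 and 0.17 at these days. The share of all genes that fell is not given for this scaling, so the excess that fell cannot be judged under it. Leaving out 1 library at a time gave 1 to 9 carriers at day 3 and 2 to 8 at day 6. The libraries bear running numbers from 1 to 41. They were split here into ranges of 1 to 21 and 22 to 41, a break that the labels do not mark. All 3 HNKO libraries of day 21 were in the higher range, whereas 3 of the 5 WT libraries of that day were in the lower. With the number range in the model 4 carriers changed at day 21, 8.89% beside 4.0% of all genes, and those added were Slc25a46 (log2 fold change -0.43, adjusted p = 0.0236), Slc25a3 (-0.43, adjusted p = 0.0343), and Slc25a4 (1.56, adjusted p = 0.0490). With a score of circadian clock genes in each library in the model 7 changed at day 12, 15.6% beside 18.9% of all genes, and those added were Slc25a13 (-0.30), Slc25a20 (-0.45), Slc25a32 (-0.55), and Slc25a36 (0.56). At days 3 and 6 other settings added Slc25a13 and Slc25a21 at day 3, Slc25a16 at both days, Slc25a10, Slc25a32, Slc25a4, and Slc25a14 at day 6, each under 1 or more of them. Carriers that only another setting called are named with their values known.

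The log2 fold change lay below 0, called or not, for 32 carriers at day 3 (71.1% beside 48.1% of all genes), 31 at day 6 (68.9% beside 51.8%), 26 at day 12 (57.8% beside 49.7%), and 31 at day 21 (68.9% beside 51.7%). The median of the carriers was -0.16, -0.22, -0.03, and -0.16 in the order of the days, whereas the median of all tested genes lay between -0.01 and 0.01. The libraries of the genotypes did not overlap for 2 carriers at day 3 (4.44% beside 4.11% of all genes), Slc25a13 and Slc25a46. They were apart for 7 at day 6 (15.6% beside 12.8%), for 1 at day 12 (2.22% beside 4.79%), and for 6 at day 21 (13.3% beside 13.9%). The log2 fold change was below 0 at all 4 days for 16 carriers, or 35.6% beside 23.8% of all genes, and above 0 at all 4 days for 3, or 6.67% beside 24.3%. In total 10 carriers changed at 1 or more days, 22.2% beside 18.7% of all genes.

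**Figure D2:**
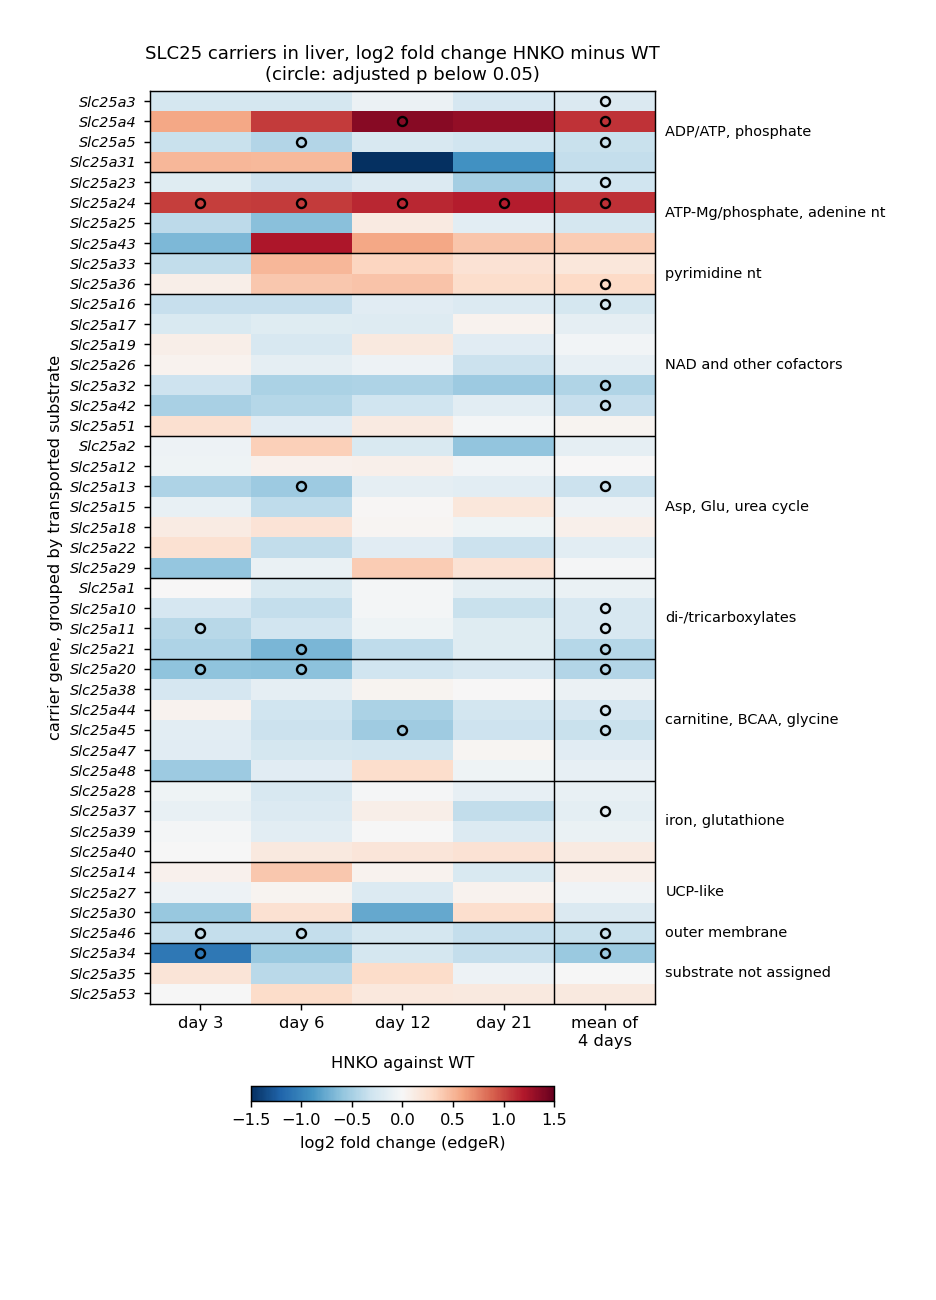
Log2 fold change of HNKO against WT (colour) for the 45 carriers (rows, grouped by substrate) at each day and for the mean of the 4 days (columns), with circles where the adjusted p was below 0.05. Slc25a24 carries a circle in every column, the blue circles of 16 carriers stand in the column of the mean, and the deep colours of Slc25a31 and Slc25a43 come from genes with at most 24 and 21 counts in a library.

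Slc25a24 was low in WT and higher in nearly all HNKO libraries. At day 3, Slc25a24 stood at 2.91, 3.27, 3.84, 4.05 and 4.29 CPM in the 5 WT libraries and 3.61, 5.53, 9.16, 9.46 and 10.1 CPM in the 5 HNKO libraries. At day 6, Slc25a24 stood at 2.92, 3.12, 3.21 and 4.11 CPM in the 4 WT libraries and 4.32, 5.43, 5.98, 8.67 and 10.1 CPM in the 5 HNKO libraries. All HNKO libraries of day 6 lay above all WT libraries, while at day 3 HNKO library 22, at 3.61 CPM, lay within the WT range. At day 12, Slc25a24 showed 2.47, 2.61, 3.01, 3.53 and 3.65 CPM in the 5 WT libraries and a lowest 4.38, a median 6.39 and a highest 10.4 CPM in the 6 HNKO libraries. At day 21, Slc25a24 showed 2.64, 2.83, 2.94, 3.0 and 3.8 CPM in the 5 WT libraries and 4.99, 5.26 and 10.3 CPM in the 3 HNKO libraries. The groups did not overlap at either of these days. The log2 fold change at days 3, 6, 12, and 21 was 1.03 ± 0.251, 1.05 ± 0.272, 1.13 ± 0.244, and 1.18 ± 0.282 (± SE, adjusted p = 0.0155, 0.00917, 0.00590, and 0.0179), which is a 2.05-, 2.08-, 2.19-, and 2.26-fold higher level. Of all tested genes 0.897% were called at all 4 days. When each number range was compared apart, Slc25a24 was above WT in all 7 pairs of group means, with differences of 0.73 to 1.17 on the log2 scale. The call at day 3 was lost without HNKO library 2 (adjusted p = 0.0593) or 23 (adjusted p = 0.0639), and that at day 21 without HNKO library 37 (log2 fold change 0.77, adjusted p = 0.471). With only the groups of day 3 in the fit the day 3 call was lost too (adjusted p = 0.0561). With the excluded libraries 17 and 18 in the fit, Slc25a24 was called at no day (adjusted p = 0.201, 0.166, 0.108, and 0.187), and these libraries held 0 and 128 counts of the gene.

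Markers of some other cell types also differed between the genotypes. The summed level of 10 bile duct and progenitor markers ranged from 46.1 to 73.1 CPM in WT and from 127 to 794 CPM in HNKO libraries, and 7, 7, 6, and 5 of the 10 rose at days 3, 6, 12, and 21. Of all tested genes 2.95%, 8.42%, 4.56%, and 2.21% rose at these days and 1.71%, 4.37%, 3.27%, and 0.916% fell. Of 10 stellate cell and myofibroblast markers, 4, 5, 3, and 4 rose, with 1 lower at day 12, and their sum ranged from 533 to 693 CPM in WT and from 469 to 1507 CPM in HNKO. Of 10 macrophage markers, 1, 4, 1, and 1 rose. Of 8 markers of cycling cells, 0, 1, 0, and 3 rose and none fell. Of 9 tested lymphocyte and neutrophil markers, 0, 2, 1, and 0 rose and 1, 0, 0, and 0 fell. Of 10 endothelial markers, 0, 0, 1, and 0 rose and 0, 2, 2, and 0 fell, and their sum ranged from 741 to 936 CPM in WT and from 713 to 866 CPM in HNKO. The sum of 11 hepatocyte markers ranged from 111304 to 168983 CPM in WT and from 71517 to 142233 CPM in HNKO, and 2 of the 11 fell at day 6 and 0 at the other days. The HNKO libraries with the most Slc25a24 at days 3, 6, 12, and 21 were 23, 29, 35, and 37, and they held bile duct sums of 427, 794, 237, and 522 CPM. These sums were the highest of their group at days 6 and 21, whereas library 2 at day 3 and library 12 at day 12 were higher, at 435 and 246 CPM. Library 22, the lowest in Slc25a24 at day 3, had the lowest bile duct and stellate sums of that group, 128 and 469 CPM. The part of cell composition in the carrier levels was not tested, and in whole liver fewer cells of a type and less RNA per cell cannot be told apart.

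**Figure D3:**
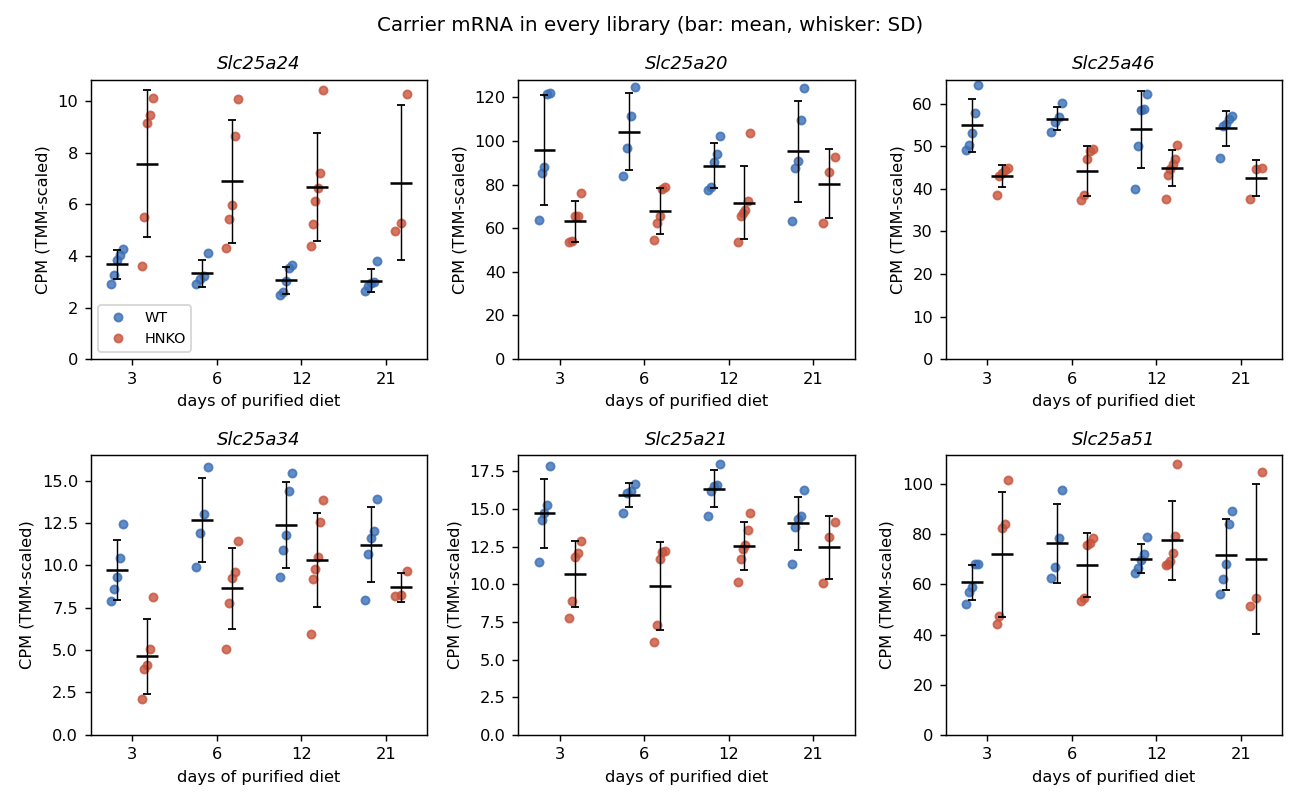
CPM of 6 carriers in each of the 38 libraries by days of PD, with mean (bar) and SD (whisker) per group. HNKO points of Slc25a24 lie above WT at days 6, 12, and 21, those of Slc25a46 lie below WT at days 3, 6, and 21, and the genotypes of Slc25a51 are mixed at every day.

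Slc25a20 was lower in HNKO at days 3 and 6 by the test, and its log2 fold change was below 0 at all 4 days. Its protein exchanges acylcarnitine for free carnitine, between the CPT1 and CPT2 steps of long-chain fatty acid oxidation. At day 3, Slc25a20 stood at 63.6, 85.3, 87.99, 122 and 122 CPM in the 5 WT libraries and 53.6, 54.3, 65.7, 65.8 and 76.2 CPM in the 5 HNKO libraries. At day 6, Slc25a20 stood at 84.1, 96.8, 112 and 125 CPM in the 4 WT libraries and 54.4, 62.3, 65.7, 78.1 and 78.7 CPM in the 5 HNKO libraries. At day 3 WT library 1, at 63.6 CPM, was as low as HNKO, and at day 6 the groups did not overlap. At day 12, Slc25a20 showed 77.5, 79.1, 90.3, 94.1 and 102 CPM in the 5 WT libraries and a lowest 53.5, a median 67.7 and a highest 103 CPM in the 6 HNKO libraries. At day 21, Slc25a20 showed 63.5, 87.6, 91.04, 109.8 and 124 CPM in the 5 WT libraries and 62.6, 85.7 and 92.9 CPM in the 3 HNKO libraries. The genotypes overlapped at these later days. Its log2 fold change was -0.60 ± 0.175 at day 3 (adjusted p = 0.0392) and -0.62 ± 0.184 at day 6 (adjusted p = 0.0231), compared with -0.30 ± 0.167 and -0.25 ± 0.203 at days 12 and 21 (adjusted p = 0.260 and 0.574). The call at day 3 was lost without any 1 of libraries 2, 3, 4, 5, 23, 24, and 25 and that at day 6 without library 8, 10, 29, or 30, with adjusted p up to 0.114. Without TMM and without mitochondrial RNA in the library size Slc25a20 had a log2 fold change of -0.42 at day 3 and -0.44 at day 6 and was called at neither (adjusted p = 0.119 and 0.107). Its day 3 call was also lost with only the groups of that day in the fit (adjusted p = 0.0827), with all 40 libraries (adjusted p = 0.0562), and with no filter beyond 1 count (adjusted p = 0.0517).

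Slc25a46 was lower by a similar amount at every day. At day 3, Slc25a46 stood at 49.1, 50.3, 53.2, 57.9 and 64.3 CPM in the 5 WT libraries and 38.7, 43.04, 43.8, 44.4 and 45.02 CPM in the 5 HNKO libraries. At day 6, Slc25a46 stood at 53.4, 55.8, 56.8 and 60.1 CPM in the 4 WT libraries and 37.4, 38.6, 47.1, 48.8 and 49.4 CPM in the 5 HNKO libraries. All HNKO libraries were below all WT libraries at both days. At day 12, Slc25a46 showed 40, 50.2, 58.5, 58.9 and 62.4 CPM in the 5 WT libraries and a lowest 37.7, a median 45.2 and a highest 50.3 CPM in the 6 HNKO libraries. At day 21, Slc25a46 showed 47.2, 54.9, 55.3, 56.5 and 57.1 CPM in the 5 WT libraries and 37.6, 44.8 and 45.01 CPM in the 3 HNKO libraries. WT libraries 14 and 16 lay within the HNKO range at day 12, and the groups were apart at day 21. Its log2 fold change was -0.35 ± 0.0997 at day 3 (adjusted p = 0.0343) and -0.35 ± 0.105 at day 6 (adjusted p = 0.0231). The values at days 12 and 21, -0.27 ± 0.0950 and -0.35 ± 0.116, did not pass (adjusted p = 0.0718 and 0.0832). With the number range of the library in the model Slc25a46 was called at day 12 (-0.28, adjusted p = 0.0360) and at day 21 (-0.43, adjusted p = 0.0236), and with all 40 libraries at day 21 (-0.39, adjusted p = 0.0169). The day 3 call was lost without any 1 of libraries 2, 3, 5, 23, 24, and 25, and the day 6 call without library 7, 8, 27, or 29. Without TMM and without mitochondrial RNA in the library size the log2 fold change of Slc25a46 was -0.18 at day 3 and -0.18 at day 6, and both calls were lost (adjusted p = 0.228 and 0.275). Both were lost as well with no filter beyond 1 count (adjusted p = 0.0720 and 0.0644) and with only the 2 groups of the day in the fit (adjusted p = 0.0594 and 0.0652), and that of day 3 with all 40 libraries (adjusted p = 0.0544). Slc25a46 overlaps a gene on the opposite strand over 7.06% of its exon length, and that gene had a median of 8 counts.

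Slc25a34 had the smallest p of the family at day 3. At day 3, Slc25a34 stood at 7.91, 8.60, 9.29, 10.5 and 12.4 CPM in the 5 WT libraries and 2.10, 3.87, 4.10, 5.04 and 8.11 CPM in the 5 HNKO libraries. At day 6, Slc25a34 stood at 9.90, 11.9, 13.1 and 15.8 CPM in the 4 WT libraries and 5.06, 7.80, 9.26, 9.62 and 11.5 CPM in the 5 HNKO libraries. HNKO library 2 reached the WT range at day 3, and the other 4 HNKO libraries lay below it. At day 12, Slc25a34 showed 9.30, 10.9, 11.8, 14.4 and 15.5 CPM in the 5 WT libraries and a lowest 5.92, a median 10.2 and a highest 13.8 CPM in the 6 HNKO libraries. At day 21, Slc25a34 showed 7.93, 10.6, 11.6, 12.1 and 13.9 CPM in the 5 WT libraries and 8.20, 8.25 and 9.70 CPM in the 3 HNKO libraries. The groups overlapped at days 6, 12, and 21. Its log2 fold change was -1.07 ± 0.245 at day 3 (adjusted p = 0.0108), a ratio of HNKO to WT of 0.477. At days 6, 12, and 21 it was -0.55 ± 0.251, -0.26 ± 0.224, and -0.36 ± 0.276 (adjusted p = 0.147, 0.505, and 0.530). The call at day 3 was kept without any 1 library of that day, and with only the 2 groups of the day in the fit the adjusted p was 0.0673.

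Slc25a21 had the smallest p at day 6. At day 3, Slc25a21 stood at 11.5, 14.2, 14.7, 15.3 and 17.8 CPM in the 5 WT libraries and 7.78, 8.86, 11.8, 12.1 and 12.9 CPM in the 5 HNKO libraries. At day 6, Slc25a21 stood at 14.8, 16.05, 16.2 and 16.7 CPM in the 4 WT libraries and 6.18, 7.29, 11.7, 12.1 and 12.2 CPM in the 5 HNKO libraries. HNKO libraries 7 and 29 were the lowest at day 6, and none of the HNKO libraries reached the WT range. At day 12, Slc25a21 showed 14.5, 16.2, 16.5, 16.6 and 17.97 CPM in the 5 WT libraries and a lowest 10.2, a median 12.5 and a highest 14.8 CPM in the 6 HNKO libraries. At day 21, Slc25a21 showed 11.4, 13.8, 14.3, 14.5 and 16.2 CPM in the 5 WT libraries and 10.1, 13.2 and 14.1 CPM in the 3 HNKO libraries. The groups overlapped at days 3, 12, and 21. Its log2 fold change was -0.69 ± 0.164 at day 6 (adjusted p = 0.00485), against -0.46 ± 0.156, -0.38 ± 0.147, and -0.18 ± 0.179 at days 3, 12, and 21 (adjusted p = 0.0767, 0.0989, and 0.670). The call at day 6 was kept without any 1 library of that day, and its adjusted p was 0.0644 with only the 2 groups of the day in the fit. HNKO library 29 was also the highest of day 6 in the bile duct and stellate sums, at 794 and 1507 CPM, and the lowest in the hepatocyte sum. The exons of Slc25a21 overlap Pax9 on the opposite strand over 3.88% of their length, and Pax9 had a median of 19 counts.

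Of the other carriers 5 changed at 1 day each, given here as log2 fold changes. Slc25a11, the 2-oxoglutarate/malate carrier of the malate-aspartate shuttle, fell at day 3 with a value of -0.42 ± 0.110 (adjusted p = 0.0233). Slc25a13, also of that shuttle, fell at day 6 with -0.55 ± 0.150 (adjusted p = 0.0135), and Slc25a5 fell at day 6 with -0.44 ± 0.144 (adjusted p = 0.0387). Slc25a45, grouped here with the carnitine carriers, fell at day 12 with -0.53 ± 0.158 (adjusted p = 0.0337). At day 3 the genotypes of Slc25a13 did not overlap, and its value of -0.47 ± 0.143 did not pass (adjusted p = 0.0508). That value was called with DESeq2 (adjusted p = 0.0254), with the relative log expression size factors (adjusted p = 0.0473), with the clock gene score (adjusted p = 0.0205), with the number range (adjusted p = 0.0395), and with only the 2 groups of the day (adjusted p = 0.0476). Leaving out 1 library ended the day 6 call of Slc25a13 in 3 of 9 fits and the call of Slc25a11 in 5 of 10, of Slc25a5 in 6 of 9, and of Slc25a45 in 8 of 11. Each of these 4 calls was lost with only the 2 groups of the day in the fit (adjusted p = 0.0675 for Slc25a11, 0.105 for Slc25a13, 0.0692 for Slc25a5, and 0.0556 for Slc25a45). Each was lost without TMM and without mitochondrial RNA in the library size, where Slc25a11 was at -0.26 (adjusted p = 0.122), Slc25a13 at -0.37 (adjusted p = 0.0514), Slc25a5 at -0.27 (adjusted p = 0.230), and Slc25a45 at -0.37 (adjusted p = 0.0859). With all 40 libraries the calls of Slc25a5 (adjusted p = 0.0554) and Slc25a45 (adjusted p = 0.136) were lost, and with no filter beyond 1 count that of Slc25a5 (adjusted p = 0.0823). Part of the Slc25a11 exons, 8.92% of their length, overlaps Rnf167 on the opposite strand, which had a median of 1184.5 counts.

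Slc25a4, the ADP/ATP carrier known from heart and muscle, rose at day 12 with a log2 fold change of 1.37 ± 0.394 (adjusted p = 0.0289). HNKO library 11 held 45.6 CPM, whereas the other 5 HNKO libraries held 6.53 to 16.1 CPM and WT 5.65 to 7.50 CPM. Without that library the log2 fold change was 0.77 (adjusted p = 0.163), and the call was also lost without WT library 15, 16, or 33, with only the 2 groups of day 12 in the fit (adjusted p = 0.0781), and with all 40 libraries (adjusted p = 0.0601). At day 21 HNKO library 37 held 45.8 CPM, the other HNKO libraries 8.87 and 10.9 CPM, and WT 5.61 to 15.9 CPM (adjusted p = 0.0920). At day 6 all 5 HNKO libraries were above WT, but the carrier was not called (log2 fold change 1.05 ± 0.437, adjusted p = 0.111). With only the 2 groups of day 6 in the fit Slc25a4 was called (log2 fold change 1.05, adjusted p = 0.0247).

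Slc25a51, the NAD carrier, passed the test of the genotype at no day. At day 3, Slc25a51 stood at 52.3, 56.8, 58.99, 67.99 and 68.1 CPM in the 5 WT libraries and 44.3, 47.5, 82.6, 84.2 and 102 CPM in the 5 HNKO libraries. At day 6, Slc25a51 stood at 62.4, 66.96, 78.6 and 97.5 CPM in the 4 WT libraries and 53.4, 54.4, 75.9, 76.4 and 78.4 CPM in the 5 HNKO libraries. HNKO libraries 2 and 23 lay below all WT libraries of day 3 and libraries 3, 4, and 22 above them, so the HNKO group surrounded the WT group. At day 12, Slc25a51 showed 64.5, 66.4, 69.6, 72.1 and 79 CPM in the 5 WT libraries and a lowest 67.6, a median 70.9 and a highest 108 CPM in the 6 HNKO libraries. At day 21, Slc25a51 showed 56.2, 62.1, 67.9, 83.9 and 89.1 CPM in the 5 WT libraries and 51.3, 54.8 and 105 CPM in the 3 HNKO libraries. A single HNKO library stood high at each of these days, library 35 at day 12 and library 38 at day 21. Its log2 fold change at days 3, 6, 12, and 21 was 0.24 ± 0.197, -0.17 ± 0.208, 0.14 ± 0.188, and -0.03 ± 0.227 (adjusted p = 0.512, 0.652, 0.691, and 0.962). Over the mean of the days it was 0.04 ± 0.103 (adjusted p = 0.774), and the approximate 95% interval of the ratio of HNKO to WT was 0.897 to 1.19. Ratios of HNKO to WT within that interval were thus not excluded here. The interval holds for the TMM scaling. Without TMM and without mitochondrial RNA in the library size the log2 fold change of Slc25a51 was 0.20 over the mean of the days (adjusted p = 0.0735), 0.39 at day 3 (adjusted p = 0.137), 0.0023 at day 6, 0.30 at day 12 (adjusted p = 0.242), and 0.09 at day 21, and none of these passed the test. The median of all genes was at 0.16 over the mean under that scaling. With the group means subtracted, the carriers most alike to Slc25a51 across the 38 libraries were Slc25a15 (Spearman rho 0.67), Slc25a45 (rho 0.66), and Slc25a32, the FAD and folate carrier (rho 0.54), and the least alike was Slc25a4 (rho -0.54). These libraries share the scaling of each library and the mix of cells in it, so the correlations are descriptions only.

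The mean of the 4 genotype differences had smaller errors than any 1 day, and 19 carriers changed, 42.2% beside 36.4% of all genes. Of these 16 fell, 35.6% beside 17.3% of all genes, and 3 rose, 6.67% beside 19.2%, and called or not 34 carriers lay below 0 (75.6% beside 51.2%). The 3 that rose were Slc25a24 (log2 fold change 1.10 ± 0.131, adjusted p = 9.7e-08), Slc25a4 (1.08 ± 0.210, adjusted p = 0.000124), and Slc25a36, a pyrimidine nucleotide carrier (0.29 ± 0.0963, adjusted p = 0.0154). When libraries were instead scaled by their total without mitochondrial RNA and without TMM, the median of all genes moved to 0.16. Then 13 carriers changed, 7 up and 6 down, which is 28.9% beside 42.8% of all genes. The share called either way was thus below that of all genes. The shares of all genes that rose and that fell are not given for that scaling, so the directions cannot be set beside them. Of the 13, 9 were among the 19. Under that scaling 1 rose and 1 fell at day 3 (4.44% beside 8.98%), and 2 rose and 1 fell at day 6 (6.67% beside 14.2%). The median of the carriers was then 0.02 over the mean of the days, again below that of all genes.

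By substrate, each of the groups of carriers held at least 1 call of the mean except the 3 uncoupling-protein-like carriers, which had 0. These counts are read beside the 36.4% of all genes called over the mean and the 17.3% that fell, and groups this small were not tested as groups. Of the 4 di- and tricarboxylate carriers 3 fell, Slc25a10 for dicarboxylates (-0.24 ± 0.0761), Slc25a11, and Slc25a21, and the citrate carrier Slc25a1 was at -0.10 ± 0.0674 (adjusted p = 0.266). Of the 6 carriers grouped for carnitine, branched-chain amino acids, and glycine, with the choline transporter Slc25a48 placed among them, 3 fell. They were Slc25a20 (-0.44 ± 0.0917), Slc25a45, and Slc25a44, a branched-chain amino acid carrier (-0.25 ± 0.0947, adjusted p = 0.0371). Of the 7 cofactor carriers 3 fell, namely Slc25a32 (-0.45 ± 0.0872), the coenzyme A carrier Slc25a42 (-0.34 ± 0.0974), and Slc25a16, linked to coenzyme A (-0.26 ± 0.0591). Among 7 carriers of aspartate, glutamate, and the urea cycle 1 fell, Slc25a13 (-0.33 ± 0.0746), and Slc25a15 was at -0.07 ± 0.113 (adjusted p = 0.650). The phosphate carrier Slc25a3 fell, at -0.22 ± 0.0666, Slc25a5 at -0.33 ± 0.0714, and the ATP-Mg/phosphate carrier Slc25a23 at -0.30 ± 0.0917. Mitoferrin-1, Slc25a37, fell, at -0.15 ± 0.0559 (adjusted p = 0.0330), with a value of 0.02 under the scaling without TMM. Slc25a46 and Slc25a34 were the others that fell. Of the 16 that fell, 6 kept their call under the scaling without TMM, namely Slc25a13, Slc25a20, Slc25a21, Slc25a32, Slc25a34, and Slc25a46. The other 10 lost it, Slc25a37 with the sign turned and the rest still below 0, at -0.06 for Slc25a3, -0.17 for Slc25a5, -0.08 for Slc25a10, -0.08 for Slc25a11, -0.10 for Slc25a16, -0.15 for Slc25a23, -0.18 for Slc25a42, -0.09 for Slc25a44, and -0.17 for Slc25a45 (adjusted p from 0.0537 for Slc25a5 to 0.571 for Slc25a3). The remaining 26 carriers did not pass the test of the mean in the main model. With the number range of the library in the model Slc25a17, a peroxisomal carrier, was called too, at -0.17 (adjusted p = 0.00747, against 0.0709 in the main model), and it was below WT in all 7 pairs of group means within a number range. With at least 10 counts in every library Slc25a40 was called, at 0.16 (adjusted p = 0.0264). Without TMM and without mitochondrial RNA in the library size those added were Slc25a12 (0.18), Slc25a14 (0.24), Slc25a40 (0.30), and Slc25a53 (0.31).

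Pairs of carriers with a common substrate were compared on the log2 ratio of counts within a library. Slc25a4 over Slc25a5 was higher in HNKO by 0.85, 1.44, 1.29, and 1.34 at days 3, 6, 12, and 21. Without HNKO library 37 the day 21 difference was 0.48, and with all 40 libraries 0.93. Slc25a24 over Slc25a23 was higher by 1.15, 1.33, 1.28, and 1.61, and the groups did not overlap at days 6 and 21. With all 40 libraries the day 21 difference of Slc25a24 over Slc25a23 was 0.05. Slc25a12, the aspartate/glutamate carrier known from brain and muscle, over Slc25a13 was higher by 0.39, 0.60, 0.21, and 0.15. Its day 21 difference turned to -0.14 without HNKO library 37 and was 0.36 with all 40 libraries. These 8 pairs and 4 days gave 32 exact two-sided permutation tests, chosen after the carriers' values were seen. None passed after Benjamini-Hochberg adjustment, and the smallest adjusted p was 0.104. The smallest p that the design allows is 0.00794, 0.0159, 0.00433, and 0.0357 in the order of the days. For the 5 other pairs the differences ranged from -0.26 for Slc25a37 over Slc25a28 at day 21 to 1.70 for Slc25a24 over Slc25a25 at day 6.

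**Figure D4:**
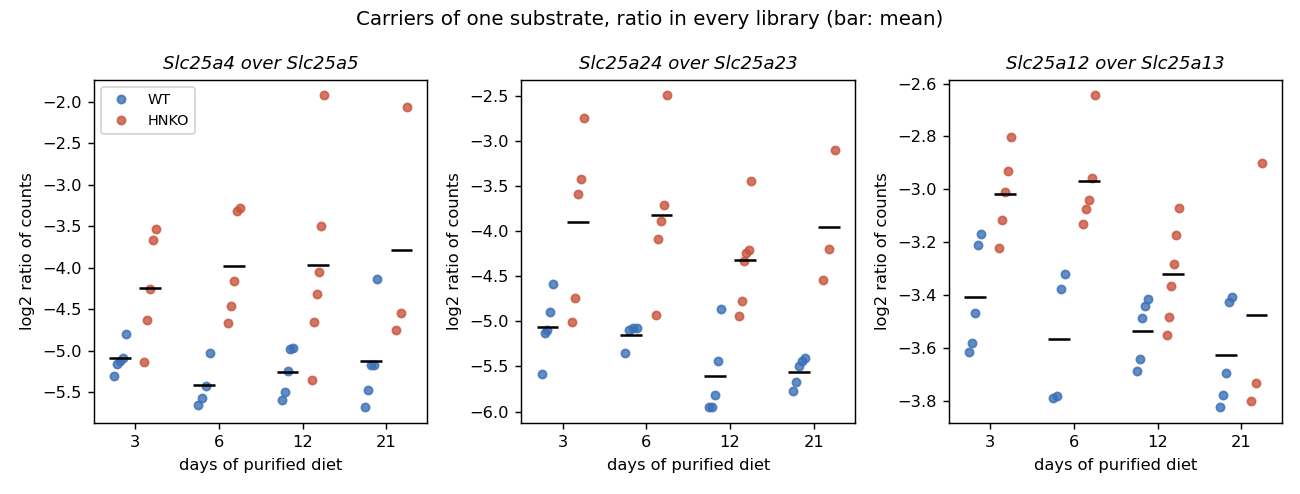
Log2 ratio of counts of 3 carrier pairs in each library by days of PD, with bars at the group means. HNKO points of Slc25a24 over Slc25a23 lie above all WT points at days 6 and 21, and the topmost HNKO points of Slc25a4 over Slc25a5 at days 12 and 21 are libraries 11 and 37.

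No carrier passed the test that the genotype difference varied with the day, in edgeR or in DESeq2, beside 0.0% of all genes in edgeR and 0.0789% in DESeq2. In edgeR 2 carriers, Slc25a29 and Slc25a37, had an unadjusted p below 0.05 (0.0162 and 0.0438), 4.44% beside 4.76% of all genes. The days themselves mattered for 3 carriers in WT, 6.67% beside 5.84% of all genes, and for 3 in HNKO, 6.67% beside 7.9%. Slc25a42 in WT was at 38.9 ± 7.44, 32.2 ± 6.04, 58.7 ± 11.8, and 62.2 ± 14.6 CPM at days 3, 6, 12, and 21 (edgeR adjusted p = 0.00235), and in HNKO at 27.7 ± 7.15, 23.9 ± 4.34, 47.8 ± 11.04, and 55.9 ± 11.6 CPM (adjusted p = 0.000137). Its means at days 3 and 6 were below those at days 12 and 21 in both genotypes. Slc25a48, a choline transporter, went from 5.66 ± 1.48 CPM at day 3 to 9.65 ± 1.71 CPM at day 21 in WT (edgeR adjusted p = 0.0188) and from 3.91 ± 1.48 to 9.27 ± 1.72 CPM in HNKO (adjusted p = 0.000630). Slc25a37 differed between days in WT, with the highest mean, 37.1 ± 2.93 CPM, at day 21 (edgeR adjusted p = 0.00716), and its adjusted p was 0.157 in HNKO. Slc25a34 differed between days in HNKO, from 4.64 ± 2.21 CPM at day 3 to 10.3 ± 2.77 CPM at day 12 (edgeR adjusted p = 0.0101), and its adjusted p was 0.652 in WT. The day courses of these genes did not pass the test of a difference between genotypes. The summed level of 12 genes of the circadian clock ranged from 363 to 1154 CPM among the WT libraries of day 6 alone. The clock gene score of the models was a different measure. It was the mean standardized log2 level of Arntl, Npas2, and Clock minus that of Dbp, Nr1d1, Nr1d2, Per2, Per3, Ciart, and Tef. With this score in the model 7 carriers differed between days in WT (15.6% beside 15.5% of all genes) and 5 in HNKO (11.1% beside 16.6%).

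**Figure D5:**
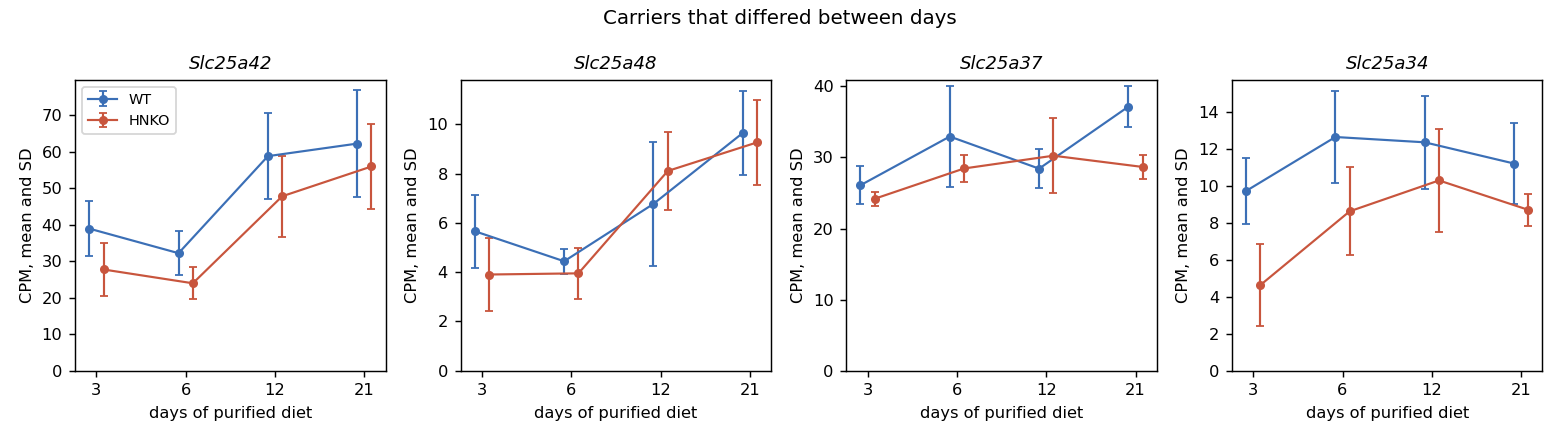
Mean CPM and SD of the 4 carriers that differed between days, by genotype and days of PD, with days spaced evenly. Slc25a42 and Slc25a48 are higher at days 12 and 21 than at day 6 in both genotypes, and Slc25a34 is lowest in HNKO at day 3.

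Carriers are brought to the inner membrane by TOM70, the small TIM chaperones, and the TIM22 complex. Of 10 genes of this route 1 changed at a single day: Tomm70a, the receptor, fell at day 3, at -0.41 ± 0.120 on the log2 scale (adjusted p = 0.0404), beside 1.71% of all genes that fell at that day. Over the mean of the days 3 of the 10 fell, Tomm70a (-0.29 ± 0.0626), the chaperone Timm10 (-0.28 ± 0.0715), and Timm29 of the TIM22 complex (-0.13 ± 0.0514), and none rose, with a list median of -0.13. The share that fell was 30% beside 17.3% of all genes. Under the scaling without TMM, an alternative for these lists that was chosen after seeing the data, 0 of the 10 fell and 2 rose over the mean, with a median of 0.03, and none was called at any single day. Of all genes 42.8% were called over the mean under that scaling, with a median of 0.16. Among 25 tested genes of other transport across the mitochondrial membranes, 12 fell (48.0% beside 17.3%) and 2 rose (8% beside 19.2%) over the mean of the days, with a median of -0.14. Under the scaling without TMM 6 fell and 4 rose, with a median of 0.02. In neither list was the share called either way above the 42.8% of all genes. The shares of all genes that fell and that rose are not given for that scaling. In the main fit the genes of this list that fell included the pyruvate carrier subunits Mpc1 (-0.40 ± 0.0583) and Mpc2 (-0.39 ± 0.0965), the calcium uniporter Mcu (-0.46 ± 0.111), and Cpt2, which acts beside Slc25a20 (-0.43 ± 0.0741). The 2 that rose were Sfxn3, a sideroflexin (0.90 ± 0.131), and Ucp2 (0.38 ± 0.0895), an uncoupling protein of the SLC25 family whose symbol the rule leaves out. The medians of both lists were close to that of the SLC25 carriers, -0.14.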

How the data were processed

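RNA-seq of whole liver gave 1 table of raw counts for 40 libraries. As stated by the study and the submitters' processing notes, the authors aligned 51-bp paired-end reads to GRCm38 with STAR 2.7.2b, counted fragments with both ends aligned on GENCODE release M22 genes with featureCounts 1.6.4, and deposited the counts without normalization. Whether strand was used in counting is not given in the sources used here, so reads of genes overlapping on opposite strands may be mixed. Symbols and lengths came from GENCODE release M21, and 55394 of 55487 genes matched. Here, edgeR 4.0.16 (R 4.3.3) was run with TMM factors, filterByExpr, 1 model of all 8 groups over 38 libraries, quasi-likelihood tests, and Benjamini-Hochberg adjustment over 20297 genes. The steps were tested on simulated data. Pair ratios used counts plus 0.5. The mean of the 4 days weights days equally. Alternatives are given in the closing section. Carriers called at 2 or more days, those with the smallest p at a day, and Slc25a51 are given by library. The carriers, lists, and comparisons were chosen with earlier results of these data known. Gene Tf of the hepatocyte list had no match.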

Additional observations from a re-analysis of the deposited data

Results flagged for a closer look

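In 98 groups of 4 to 6 libraries, 14 carriers over 7 groups each, the gap between an extreme library and the others was set against Dixon's 95% limit. Chance passes that limit in about 1 in 20 groups, and 3 of the 98 passed it. Slc25a46 in WT at day 21 was at 47.2 CPM in library 21 and at 54.9 to 57.1 CPM in the other 4 libraries. Slc25a48 in WT at day 3 was at 3.09 CPM in library 24 and at 5.97 to 6.83 CPM in the other 4. Slc25a51 in HNKO at day 12 was at 108 CPM in library 35 and at 67.6 to 79.4 CPM in the other 5. Library 35 also had the highest sum of 8 erythroid markers of its group, 699 CPM against 57.8 to 190.5 CPM, and the part of these cells in the Slc25a51 value was not tested.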

How the results depend on the processing

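The main counts of changed carriers were 5, 6, 3, and 1 at days 3, 6, 12, and 21. Each count under another setting is given with the share of all tested genes called under it, except where 1 library was left out. For those fits the share is not given, so their counts cannot be set beside all genes. At day 3 the count was 8 with DESeq2 (17.8% beside 7.04%), 2 with all 40 libraries (4.44% beside 1.66%), 2 without TMM and without mitochondrial RNA in the library size (4.44% beside 8.98%), 3 with no filter beyond 1 count (6.67% beside 1.6%), and 1 with only the 2 groups of the day in the fit (2.38% beside 2.42%). That 1 carrier was Slc25a13 (adjusted p = 0.0476), and none of the 5 of the main count. At day 6 it was 3 without TMM and without mitochondrial RNA in the library size (6.67% beside 14.2%) and 3 with only the 2 groups (7.14% beside 7.53%). The clock gene score added Slc25a10, Slc25a16, and Slc25a32 at day 6, and no call of a named carrier was lost with it. With only the 2 groups Slc25a4 at day 6 (adjusted p = 0.0247) and Slc25a30 at day 12 (adjusted p = 0.0443) were gained too. These 2 and Slc25a13 are named with their values known. At day 12 the count was 0 with all 40 libraries (beside 3.12%) and 7 with the clock gene score in the model (15.6% beside 18.9%), and at day 21 4 with the number range of the library in the model (8.89% beside 4.0%). For differences between days the 3 carriers in WT became 7 with the clock gene score (15.6% beside 15.5%) and 7 with the number range (15.6% beside 11%), and the 3 in HNKO became 5 with the clock gene score (11.1% beside 16.6%). Leaving out 1 library at a time gave 1 to 9 carriers at day 3, 2 to 8 at day 6, 1 to 4 at day 12, 0 to 2 at day 21, 17 to 22 for the mean of the days, 0 for the genotype by day test, 2 to 4 for days in WT, and 3 to 4 for days in HNKO. The count at day 3 was 1 without HNKO library 2 or 23, 2 without HNKO library 3 or WT library 25, 3 without WT library 5 or 24, and 9 without HNKO library 22. It was 2 at day 6 without WT library 8 or HNKO library 29, 1 at day 12 without WT library 15, 0 at day 21 without HNKO library 37, and 2 at day 21 without HNKO library 38 or 40.

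Under DESeq2, the relative log expression size factors, the clock gene score, and the number range, the 39 values of named carriers kept their direction and their side of the threshold. Of the 34 of these values that were called, 2 lost the call with at least 10 counts in every library, 6 with no filter beyond 1 count, and 9 with all 40 libraries. Without TMM and without mitochondrial RNA in the library size, a setting that changes both choices at once, 18 lost it. With only the 2 groups of the day 11 of 15 called values lost it. Under the scaling without TMM and without mitochondrial RNA the direction turned for Slc25a37 over the mean of the days (0.019). It turned there for Slc25a51 too, at day 6 (0.0023) and at day 21 (0.095). With all 40 libraries the direction of Slc25a51 also turned at day 21 (0.29). Leaving out 1 library moved Slc25a51 between -0.44 and 0.17 at day 21, with 0.06, 0.17, 0.03, and 0.14 without libraries 20, 37, 39, and 40, and between -0.056 and 0.10 over the mean of the days. It moved the day 21 difference in the log2 ratio of Slc25a12 over Slc25a13 between -0.14 and 0.31. It moved that of Slc25a4 over Slc25a5 between 0.48 and 1.82, and with all 40 libraries that of Slc25a24 over Slc25a23 was 0.05 in place of 1.61. The cause was not tested, and neither Slc25a51 value passed the test in the main fit. For the mean of the days the call of Slc25a37 was lost in 12 and that of Slc25a44 in 15 of 38 fits that left out 1 library. Carriers with under 25 counts in each library, such as Slc25a31 and Slc25a43, could show only large differences at this depth. No paired analysis was possible because every library has its own number, so the groups share none.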
